A study of Homo sapiens with 20 samples.

Results

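This account covers 10 genes of the Wnt signalling pathway, CTNNB1, APC, AXIN1, AXIN2, NOTUM, TCF7L2, TCF7, LGR5, ZNRF3 and RNF43, in HepG2 cells, an established human liver cancer cell line. The genes were chosen by name, with earlier results of these data known, and an exon entered wherever the deposited tables listed it as a skipped exon event, which requires junction reads across it. The 10 genes had 105 of the 59847 events listed in 3 tables and 10 of the 28278 genes in a table of RNA bound by FUBP1. The events numbered 35 of 19792 after FUBP1 knockdown, 48 of 32990 after U3 depletion and 22 of 7065 after fibrillarin knockdown.

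The series held 20 libraries in 8 groups, all from HepG2. FUBP1, an RNA-binding splicing factor, was knocked down with an siRNA (siFUBP1, 3 libraries) against the control siRNA siCtrl2 (3 libraries), and cells were harvested after 48 h. U3, the snoRNA that guides early processing of ribosomal RNA, was depleted with an antisense oligonucleotide (U3 ASO, 3 libraries) against an oligonucleotide to GFP (GFP ASO, 3 libraries) for 72 h. FBL, which encodes fibrillarin, the methyltransferase that places 2′-O-methyl groups on RNA, was knocked down for 48 h (siFBL) against a different control siRNA (siCtrl), and each condition gave 2 input libraries and 2 libraries of RNA immunoprecipitated with a FUBP1 antibody (RIP). Each depletion rests on 1 siRNA or 1 oligonucleotide with its own control, transiently transfected, so effects of the reagent and of the depletion cannot be told apart.

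In the canonical Wnt pathway, a destruction complex built on APC and the axins binds β-catenin and marks it for degradation, and a Wnt ligand bound to its receptors stops that complex. β-Catenin then enters the nucleus, joins TCF and LEF factors and switches on target genes, several of which feed back to dampen the signal. HepG2 is known to carry a CTNNB1 allele with an in-frame deletion in exons 3 and 4, which takes away the phosphorylation sites that the destruction complex uses, so the pathway is active in these cells without ligand.

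The following stretches of the hg38 reference genome are shown because the exon results turn on them. In the NOTUM and AXIN1 stretches the cassette exon is in capitals and 20 bases of intron on each side are in lower case. These 4 exons are coding throughout in the canonical transcript of GENCODE release 44, and all lie on the minus strand, at chr17:81959640-81959692 (NOTUM exon 2), chr17:81958935-81958995 (NOTUM exon 4), chr17:81957806-81957908 (NOTUM exon 6) and chr16:291190-291297 (AXIN1 exon 9).
NOTUM exon 2: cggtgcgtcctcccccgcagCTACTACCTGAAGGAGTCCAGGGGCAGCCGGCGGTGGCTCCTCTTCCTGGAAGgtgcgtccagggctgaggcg
NOTUM exon 4: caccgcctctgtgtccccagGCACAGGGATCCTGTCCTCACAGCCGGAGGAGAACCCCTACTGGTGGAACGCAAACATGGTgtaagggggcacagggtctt
NOTUM exon 6: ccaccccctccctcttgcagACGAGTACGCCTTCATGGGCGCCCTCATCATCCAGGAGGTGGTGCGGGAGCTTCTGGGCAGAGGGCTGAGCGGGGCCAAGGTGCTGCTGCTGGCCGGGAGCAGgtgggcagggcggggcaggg
AXIN1 exon 9: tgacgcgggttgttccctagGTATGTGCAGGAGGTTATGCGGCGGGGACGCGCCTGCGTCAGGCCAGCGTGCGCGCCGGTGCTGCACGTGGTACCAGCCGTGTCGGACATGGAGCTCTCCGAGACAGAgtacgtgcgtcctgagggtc
CTNNB1 exon 3, at chr3:41224526-41224753 on the plus strand, is coding throughout and is shown because the CTNNB1 junctions in these tables end on it. Its capitals mark codons 32 to 45, the segment that carries the phosphorylation sites, and the rest of the exon is in lower case.
CTNNB1 exon 3: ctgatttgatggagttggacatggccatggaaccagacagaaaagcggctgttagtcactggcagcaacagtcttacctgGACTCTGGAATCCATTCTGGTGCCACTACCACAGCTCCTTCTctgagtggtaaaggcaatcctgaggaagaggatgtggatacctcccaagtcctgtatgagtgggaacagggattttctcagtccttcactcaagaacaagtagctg

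The 3 NOTUM exons are 53, 61 and 103 nt long, none a multiple of 3, so that a transcript without any one of them changes frame. AXIN2 exon 7 (195 nt) and AXIN1 exon 9 (108 nt) keep the frame, and each is in 1 GENCODE transcript, the canonical one. The 4 exons shown open after AG and end before GT in the reference. All 45 distinct cassette exons listed for the 10 genes matched an exon in GENCODE release 44, and 38 of them are exons of the canonical transcript.

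Events were tested where the inclusion and skipping junction reads averaged at least 10 per library. Inclusion is the share of length-scaled junction reads that contain the exon. Of the members' events, 27 were tested for FUBP1, 45 for U3 and 17 for fibrillarin. RNF43 had a listed event in the U3 table alone, and ZNRF3 had none in the fibrillarin table. Among the members' tested events, 33.3% of those from the FUBP1 table and 33.3% of those from the U3 table had a mean inclusion between 5% and 95% in the control libraries, beside 32.1% and 27.0% of all tested events. In the fibrillarin table the same share was 64.7% of the members' events and 42.3% of all events. The median cassette exon was 101, 103 and 97 nt in the members against 115, 117 and 116 nt over all tested events in the 3 tables, in the same order. The last 50 bases of the intron before the exon held a median of 30.0%, 32% and 30.0% T in the members against 38%, 38% and 36% over all tested events.

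Junction reads in the tables came to between 2693397 and 4474350 per library for siCtrl2 and siFUBP1, 11249641 and 13321799 for the oligonucleotide groups, and 910779 and 1142189 for the inputs, so the fibrillarin table is the least precise. FUBP1 itself, the targeted gene, lay between 45.2 and 56.1 reads per 1000000 junction reads (RPM) in the siCtrl2 libraries and between 4.08 and 10.1 in the siFUBP1 libraries (exact permutation test, two-sided, p = 0.1, the smallest that 3 against 3 libraries allow). In the U3 table FUBP1 lay between 32.5 and 37.1 in the GFP ASO libraries and between 22.8 and 26.6 in the U3 ASO libraries, a log2 difference of -0.47 ± 0.16 (SE, limma, adjusted p = 0.024). FBL had no listed event, and the U3 RNA is not measured by these tables. Of 8 hepatocyte markers, 7 had tested events in each table, whereas 0 of 5 fibroblast and 0 of 5 endothelial markers did. Of 5 leukocyte markers 1 had tested events in each table, and of 5 cholangiocyte markers 1 did in the FUBP1 and U3 tables. In the RIP table the hepatocyte markers had mean normalized counts from 3544 to 1132700 in siCtrl, beside 4.84 to 83310 for the 5 leukocyte markers, where LYZ was the highest, 10.9 to 92.8 for the endothelial, 3.57 to 1003 for the fibroblast and 2.61 to 58819 for the cholangiocyte markers, and no marker was at 0.

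NOTUM encodes a secreted carboxylesterase that takes the palmitoleate group off Wnt ligands and thereby silences them, and it is itself a target gene of the pathway. After U3 depletion, the cells skipped NOTUM exon 6 far more often. Inclusion of exon 6 was 92.2%, 96.3% and 94.4% in the GFP ASO libraries and 70.3%, 71.4% and 72.9% in the U3 ASO libraries. The groups were well separated, and each was tight. The mean fell by 22.8 percentage points, from 94.3% ± 2.07 to 71.5% ± 1.31 (SD, n = 3 each), and the change passed the test over all 30109 events (quasi-binomial test with limma-moderated dispersion, Benjamini-Hochberg adjusted p = 2.15e-08). The values rest on 103 skipping reads of 2954 junction reads in the GFP ASO libraries together and on 351 of 1855 in the U3 ASO libraries.

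Exon 2 of NOTUM also fell after U3 depletion. Its inclusion was 100%, 99.9% and 100% in the GFP ASO libraries and 97.3%, 96.8% and 95.7% in the U3 ASO libraries. The mean moved by -3.38 points (adjusted p = 2.30e-04), from 2 skipping reads in 7263 junction reads to 109 in 4282. Exon 4 was at 100%, 100% and 99.9% against 96.3%, 99.5% and 97.2%, again without overlap, but its change of -2.30 points did not pass the threshold of 0.1 (adjusted p = 0.155). The other NOTUM events tested there, 4 in number, lay between 95.2% and 100% in both group means. Events of a gene share reads. The reads that join exon 5 to exon 7 are the skipping reads of the exon 6 event. Such reads also enter the neighbouring events that list exons 5 and 7 as inclusion reads, so these events are not independent.

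These were the only calls among the members' events after U3 depletion, 2 of 45, beside 0.226% of all tested events. Both lie in NOTUM, and the genes were chosen with earlier results known, so these shares do not test for an enrichment. Of 37 tested events of the hepatocyte markers, 1 was called higher and 4 lower after U3 depletion. Both NOTUM calls were kept in all 6 fits that left out 1 library. The adjusted p there reached at most 1.57e-05 for exon 6 and 0.0269 for exon 2. Of the 45 events, 7 did not overlap between the groups, beside 6.03% of all events. They were NOTUM exons 2, 4 and 6, AXIN2 exon 7, AXIN1 exon 9, a TCF7 exon and TCF7L2 exon 13. In limma on the log2 odds of inclusion, which called 0 events in the whole table, neither exon passed, with adjusted p of up to 0.618 for exon 6 and 0.488 for exon 2.

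**Figure D1:**
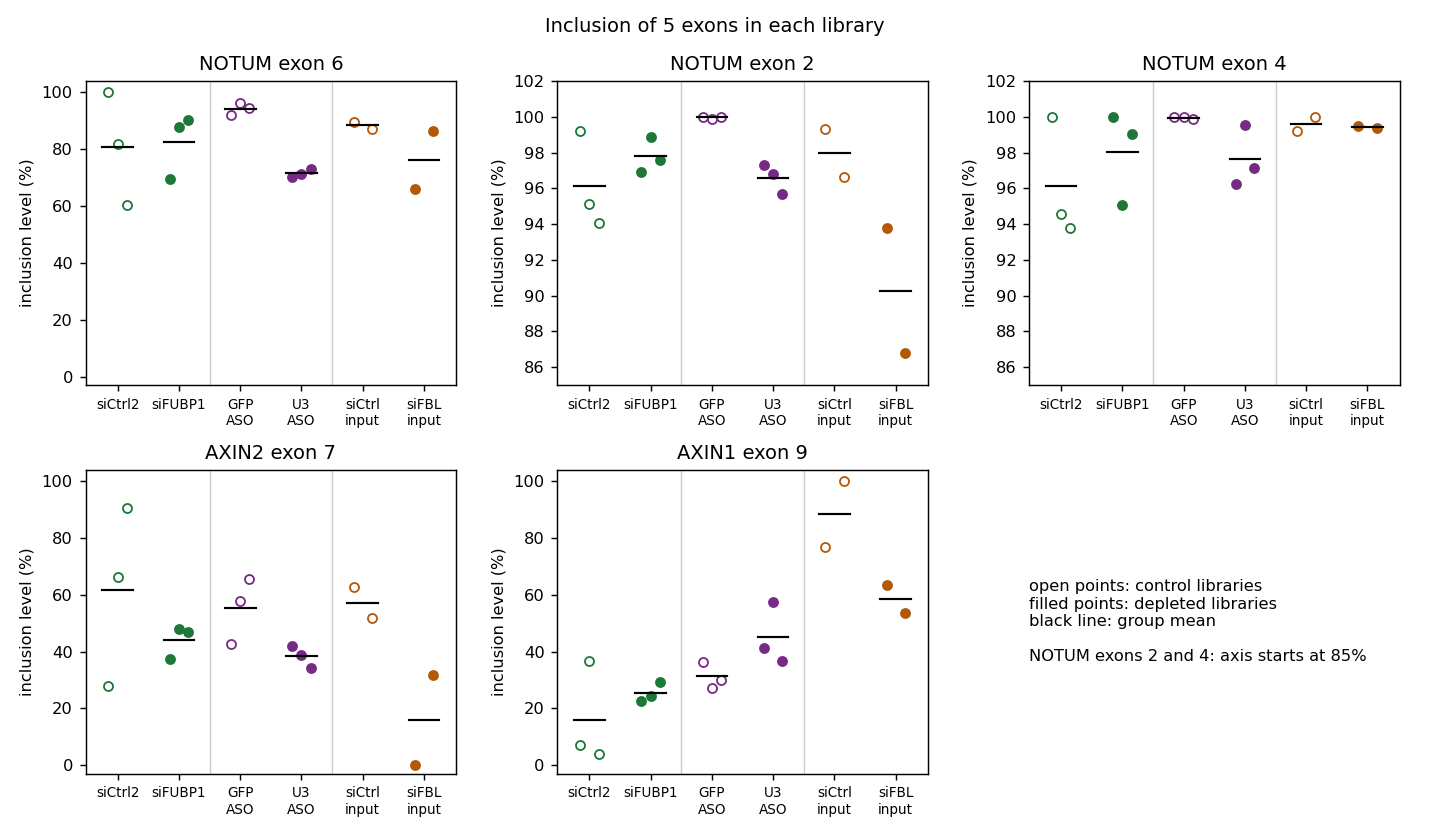
Inclusion level in percent of 3 NOTUM exons, AXIN2 exon 7 and AXIN1 exon 9 in each library of the 6 groups, with open points for control libraries, filled points for depleted libraries and a black line at each group mean. The axes for NOTUM exons 2 and 4 start at 85%. NOTUM exon 6 lies between 92.2% and 96.3% in the GFP ASO libraries and between 70.3% and 72.9% in the U3 ASO libraries.

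In the fibrillarin inputs NOTUM exons 2 and 6 were lower in siFBL as well, and no change passed the test. Exon 6 was included at 89.6% and 87.2% in the siCtrl inputs and at 65.9% and 86.4% in the siFBL inputs. One siFBL library carried most of that difference, and the groups did not overlap (change of -12.3 points, adjusted p = 0.875). Exon 2 was included at 99.3% and 96.7% in the siCtrl inputs and at 93.8% and 86.8% in the siFBL inputs, a change of -7.70 points (adjusted p = 0.875). Exon 4 was at 99.6% and 99.4% on average and did not separate the groups. Of the 17 events tested in the members 0 passed the quasi-binomial test, as did 0% of the 5208 in the table, and 1 of the 17, NOTUM exon 2, had an unadjusted p under 0.05. With the dispersion trend fitted on the mean reads instead, NOTUM exon 2 was among 58 events called in the table (adjusted p = 0.0736), and limma on the log2 odds called 0. Of the members' 17 events, 5 did not overlap between groups of 2, beside 13.8% of all events. They were NOTUM exons 2 and 6, AXIN2 exon 7, AXIN1 exon 9 and the CTNNB1 cassette.

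After FUBP1 knockdown NOTUM splicing showed no call. Exon 6 inclusion was 100%, 81.7% and 60.3% in the siCtrl2 libraries and 69.7%, 87.6% and 90.4% in the siFUBP1 libraries, so the spread within the control group exceeded the difference of 1.88 points between the means (adjusted p = 0.848). Exon 2 lay between 94.1% and 99.2% in siCtrl2 and between 96.9% and 98.9% in siFUBP1. Exon 4 lay between 93.8% and 100% in siCtrl2 and between 95.1% and 100% in siFUBP1. Of the 27 tested events of the members, 0 passed the test after FUBP1 knockdown, beside 0.197% of all tested events. Of 29 tested events of the hepatocyte markers, 0 were called higher and 4 lower there. Of the 27, 1 event, a TCF7L2 exon, did not overlap between the groups, beside 5.05% of all, and 1 had an unadjusted p under 0.05. In limma on the log2 odds of inclusion the members also had 0 calls.

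AXIN2 is a scaffold of the destruction complex and a target gene that acts as a feedback inhibitor. Its exon 7 was an alternative exon in every group. In the U3 table its inclusion was 42.7%, 57.8% and 65.6% in the GFP ASO libraries and 42.0%, 38.7% and 34.4% in the U3 ASO libraries. The groups were separated by less than 1 point, and the change of -17.0 points did not pass (adjusted p = 0.845). In the FUBP1 table it was 27.8%, 66.3% and 90.5% in siCtrl2 against 37.4%, 47.8% and 46.9% in siFUBP1, with overlap (change of -17.5 points, adjusted p = 0.812). In the fibrillarin inputs it was 62.7% and 51.7% against 0% and 31.7% (change of -41.4 points, adjusted p = 0.875). The mean was thus lower in the depleted group in all 3 comparisons, which use different libraries, and in none of them did the change pass. Single libraries set its size. The change in the FUBP1 table, a share of -0.175, was -0.0302 without the siCtrl2 library at 90.5% and -0.344 without the one at 27.8%. The change in the inputs, -0.414, was -0.255 without the siFBL library at 0% and -0.572 without the one at 31.7%. The fibrillarin value rests on 92 junction reads in the control and 32 in the depleted libraries. The other AXIN2 cassette exons were nearly constitutive, with group means from 97.4% to 100%.

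AXIN1 is the other axin scaffold. Its exon 9 was included at 36.4%, 27.2% and 30.1% in the GFP ASO libraries and at 41.3%, 57.6% and 36.5% in the U3 ASO libraries. The lowest U3 ASO library lay just above the highest GFP ASO library, and the change of 13.9 points did not pass (adjusted p = 0.845). In siCtrl2 it was at 7.03%, 36.7% and 3.84%, and in siFUBP1 at 22.5%, 24.5% and 29.1%. In the inputs it was at 76.7% and 100% in siCtrl and at 63.5% and 53.7% in siFBL, from 59 and 23 junction reads in all. The means of AXIN1 exon 9 were higher after U3 depletion and FUBP1 knockdown and lower after fibrillarin knockdown, and no difference passed. In siFUBP1 the difference rested on the control libraries. It was a share of 0.0349 without the siCtrl2 library at 3.84% and 0.199 without the one at 36.7%, beside 0.0949 with all. The other AXIN1 exons had group means from 94.1% to 100% in all 3 tables.

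APC, the large scaffold that brings β-catenin to the complex, had 6 tested events after U3 depletion, 2 after FUBP1 knockdown and 1 in the inputs. Those events held between 11.7 and 70.8 junction reads per library on average, and the lowest unadjusted p among them was 0.264. Exon 2, spliced between the same flanking exons in all 3 tables, was included at 100%, 100% and 94.1% in GFP ASO and at 100%, 100% and 79.5% in U3 ASO. In siCtrl2 the same exon was at 100%, 100% and 80.0%, and it was at 100% in each siFUBP1 library. In the inputs it was at 100% and 28.0% in siCtrl and at 100% in both siFBL libraries. Single libraries set these means in each table.

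CTNNB1 encodes β-catenin. Each table listed 1 event for it, the same one, a cassette of 132 nt at chr3:41224190-41224321 between canonical exons 2 and 3. This exon is in 11 GENCODE transcripts, lies outside the canonical coding sequence and was hardly used in these libraries. Inclusion was 0%, 0.220% and 0% in the GFP ASO libraries and 0.0937%, 0.634% and 0.520% in the U3 ASO libraries (adjusted p = 0.845). It was 0.188%, 0.715% and 0.323% in siCtrl2 and 0.665%, 0.259% and 0.436% in siFUBP1 (adjusted p = 0.995). In the inputs it was 0.546% and 1.07% in siCtrl and 0% in both siFBL libraries (adjusted p = 0.875), where the higher values rest on 3 inclusion reads in each siCtrl library. The groups overlapped except in the inputs. In the 11 annotated transcripts with the cassette, the coding sequence begins at position 41224534 in exon 3 instead of at 41224069 in exon 2, which removes 21 coding bases, or 7 residues, and leaves codons 32 to 45 in place.

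No table listed an event that skips exon 3 or exon 4 of CTNNB1. The CTNNB1 event, nearly all of it the junction from exon 2 to exon 3, held an average of 703 reads per library after FUBP1 siRNA or its control, 1097 with the oligonucleotides and 217 in the inputs. Whether these reads came from the deleted or the full-length allele of HepG2 was not tested.

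TCF7 and TCF7L2 are DNA-binding factors that β-catenin turns into activators. A TCF7 exon of 93 nt at chr5:134140796-134140888, outside the canonical transcript, was included at 4.73%, 0.848% and 2.76% in GFP ASO and at 7.49%, 11.7% and 19.8% in U3 ASO. The groups did not overlap, and the difference of 10.2 points did not pass (adjusted p = 0.845). The same exon was at 0%, 15.2% and 2.66% in siCtrl2 and at 7.39%, 18.1% and 11.5% in siFUBP1 (adjusted p = 0.812). In the inputs it was at 43.5% and 0% in siCtrl and at 18.8% and 5.54% in siFBL, with 15.3 junction reads per library. A TCF7 exon of 73 nt at chr5:134144797-134144869, also outside the canonical transcript, was at 0%, 5.85% and 1.74% in siCtrl2 and at 29.4%, 2.12% and 10.9% in siFUBP1 (adjusted p = 0.812). With the oligonucleotides it was at 3.27%, 0% and 10.9% in GFP ASO and at 5.94%, 6.49% and 8.33% in U3 ASO (adjusted p = 0.845). In the inputs it was at 0% in both siCtrl libraries and at 0% and 38.6% in siFBL (adjusted p = 0.875). The groups overlapped or touched for this exon in all 3 tables.

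TCF7L2 is known for many alternative forms, and it had 27 of the 105 listed events, the most of the 10 genes. After FUBP1 knockdown its exon 14, in the event that joins exon 12 to a last exon, was at 0%, 64.9% and 30.9% in siCtrl2 and at 0%, 6.94% and 5.75% in siFUBP1. This was the 1 event of the members with an unadjusted p under 0.05 after FUBP1 knockdown (adjusted p = 0.812), it overlapped between the groups, and it held 13.5 junction reads per library. Another exon of 73 nt, outside the canonical transcript, was at 45.6%, 20.1% and 25.1% in siCtrl2 and at 0%, 18.3% and 0% in siFUBP1 on 11.2 reads per library, without overlap (adjusted p = 0.812). Exon 4 was included at 9.19%, 17.7% and 47.2% in GFP ASO and at 25.1%, 53.5% and 65.5% in U3 ASO (adjusted p = 0.845). In siCtrl2 exon 4 was at 27.8%, 5.71% and 12.8%, and in siFUBP1 it was at 27.3%, 9.86% and 14.2%. The inputs had 36.3% and 0% in siCtrl and 18.6% and 16.7% in siFBL. Exon 13, joined to the last exon, was at 25.6%, 14.7% and 31.4% in GFP ASO and at 79.9%, 38.3% and 58.0% in U3 ASO, without overlap but on 21.0 reads per library (adjusted p = 0.845). Another cassette, 141 nt long and outside the canonical transcript, held the most TCF7L2 reads of the tested events in each table. It was at 12.5%, 15.4% and 2.85% in GFP ASO and at 11.2%, 10.5% and 12.9% in U3 ASO, and at 8.96%, 1.66% and 2.28% in siCtrl2 and 15.3%, 3.51% and 10.9% in siFUBP1. The groups of this exon overlapped. The inputs had 4.34% and 24.8% of it in siCtrl and 36.6% and 0% in siFBL.

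LGR5 is the receptor for R-spondins, and ZNRF3 and RNF43 are the ubiquitin ligases that remove Wnt receptors from the membrane and that R-spondins inhibit. LGR5 exon 8, listed in all 3 tables, was at 95.5%, 83.2% and 80.9% in GFP ASO and at 100%, 96.1% and 79.2% in U3 ASO. It was at 100%, 72.7% and 100% in siCtrl2 and at 77.8%, 76.9% and 97.8% in siFUBP1. In the inputs exon 8 was at 100% and 85.9% in siCtrl and at 100% in both siFBL libraries. LGR5 exon 5 lay between 84.6% and 100% in every library of the other 2 tables, and in the inputs it was at 60.0% and 100% in siCtrl and at 100% in both siFBL libraries. LGR5 exon 3, tested after FUBP1 knockdown alone, was at 100%, 98.1% and 100% in siCtrl2 and at 100%, 95.8% and 98.1% in siFUBP1 (adjusted p = 0.815). The ZNRF3 events had group means of 97.4% or more in every group measured. RNF43 exon 5 was at 100%, 96.4% and 96.7% in GFP ASO and at 100% in each U3 ASO library (adjusted p = 0.845).

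The level of each spliced RNA was read from the junction reads of the gene's event with the most reads, in RPM of the library's junction reads. In these bulk libraries, fewer cells that make an RNA and less of it per cell cannot be told apart. NOTUM was the 1 member called in all 3 comparisons. In the U3 table it was at 265, 267 and 302 RPM in GFP ASO and at 184, 179 and 169 in U3 ASO. All U3 ASO libraries lay below all GFP ASO libraries. The log2 difference was -0.65 ± 0.07 (SE, limma, adjusted p = 4.48e-07), or -0.92 relative to the median of all genes, which had itself moved by 0.27. In the fibrillarin inputs NOTUM was at 688 and 661 against 405 and 442, a log2 difference of -0.67 ± 0.18 (limma, adjusted p = 0.0402). The call in the inputs was lost under median-of-ratios scaling (-0.49) and whenever 1 library was left out.

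After FUBP1 knockdown the NOTUM level lay the other way. It was at 118, 129 and 103 RPM in siCtrl2 and at 147, 148 and 167 in siFUBP1, without overlap. The log2 difference was 0.41 ± 0.14 (limma, adjusted p = 0.0916), just under the threshold of 0.1. Leaving out 1 library lost that call in 5 of 6 fits, with an adjusted p of up to 0.295, and the value lay between 0.32 and 0.48. Of the 9 members tested, NOTUM was the 1 gene called, beside 9.11% of all 6266 genes.

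After U3 depletion 4 of the 10 members were called, beside 39.4% of all 8456 genes. Besides NOTUM, the U3 ASO libraries had more CTNNB1, at 72.5, 78.8 and 87.9 against 100, 101 and 100 RPM (log2 difference 0.34 ± 0.10, adjusted p = 0.0125). AXIN1 was at 39.3, 43.0 and 54.2 against 67.5, 50.6 and 66.7 (0.44 ± 0.14, adjusted p = 0.0195). TCF7 was at 5.96, 5.96 and 12.1 against 17.5, 12.1 and 11.8 (0.84 ± 0.30, adjusted p = 0.0331). CTNNB1 did not overlap between the groups, while AXIN1 and TCF7 did, and the latter 2 each lost the call in 2 of the 6 fits without 1 library. These 3 rises depend on the scaling. The median of all genes was 0.27, and with the libraries scaled by the median of ratios, which brought it to 0.03, CTNNB1 stood at 0.09, AXIN1 at 0.20 and TCF7 at 0.60, none called, whereas NOTUM stood at -0.89 and stayed called. Over all genes, the calls were 77.1% higher in the U3 ASO under the first scaling and 48.8% under the second. The LGR5 and ZNRF3 differences, 0.22 and 0.21, turned to -0.02 and -0.04 under the second scaling and were called under neither.

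The uncalled members of the U3 table were AXIN2 (-0.02 ± 0.14), APC (-0.56 ± 0.41), TCF7L2 (0.80 ± 0.38, adjusted p = 0.114, called in 5 of 12 alternatives), LGR5, ZNRF3 and RNF43 (0.34 ± 0.24). In the FUBP1 table the uncalled members included AXIN2, at 51.1, 78.4 and 51.6 against 70.5, 80.1 and 96.5 RPM (0.47 ± 0.19, adjusted p = 0.170), and ZNRF3 (0.40 ± 0.20, adjusted p = 0.287). CTNNB1 stood at -0.05 ± 0.12 there. In the inputs 1 of 8 members was called, beside 3% of all 3098 genes. The inputs gave AXIN2 42.0 and 48.3 against 5.26 and 27.4 RPM (-1.84 ± 0.81, adjusted p = 0.326) and APC 49.9 and 35.1 against 21.0 and 7.09 (-1.73 ± 0.79, adjusted p = 0.351). Both of those genes separated the groups, on 31.0 and 29.0 reads per library, and CTNNB1 was at 257 and 165 against 228 and 209 (0.09 ± 0.29). The median of all genes in the inputs was -0.18, and 26.9% of the calls were higher in siFBL, beside 64.3% under median-of-ratios scaling.

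**Figure D2:**
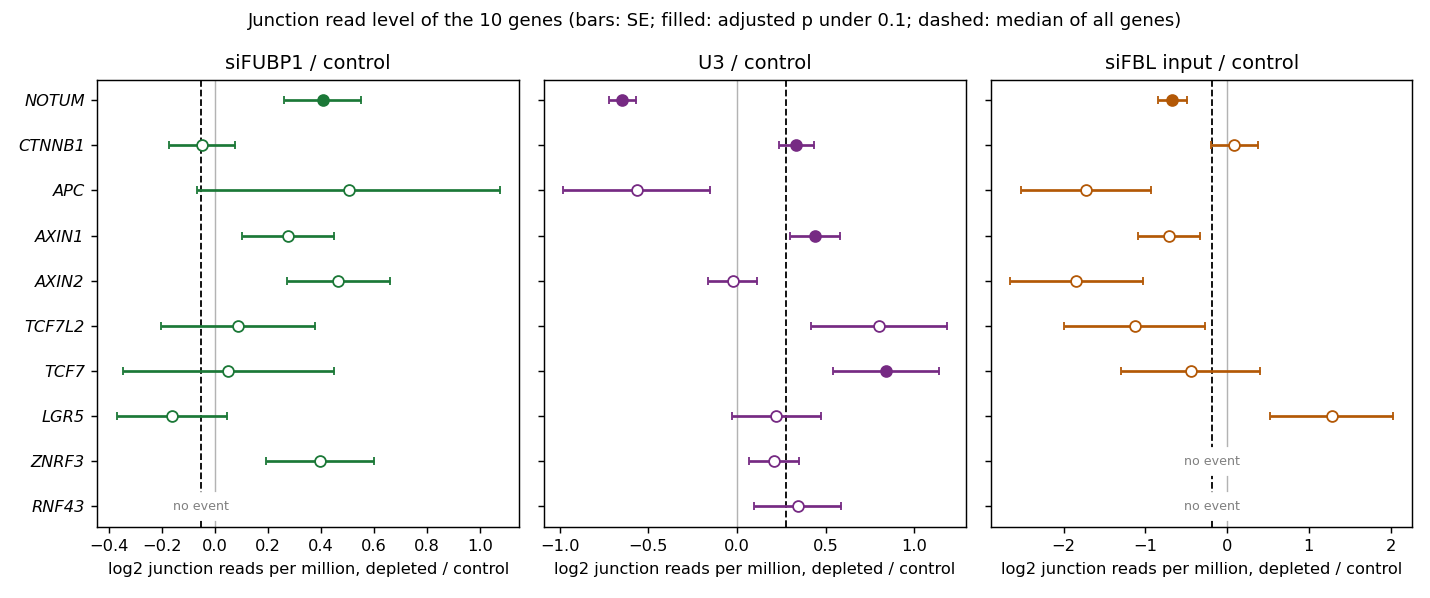
Log2 ratio of junction RPM, depleted over control, for the event with the most reads of each of the 10 genes in the 3 tables, with bars for SE, filled points for adjusted p under 0.1 and a dashed line at the median of all genes. The axes differ between panels. NOTUM lies at 0.41 in the siFUBP1 panel, -0.65 in the U3 panel and -0.67 in the siFBL input panel, while LGR5 and ZNRF3 in the U3 panel change sign under median-of-ratios scaling.

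Hepatocyte markers moved with NOTUM in the U3 table. Of the 7 tested there, 6 fell and 1 rose, with a median log2 difference of -0.57. This stands beside 39.4% of all genes called, of which 77.1% were higher. In the inputs, where NOTUM was lower as well, 3 of 7 rose and 0 fell, beside 3% of all genes called. After FUBP1 knockdown 1 rose and 2 fell, beside 9.11%. The 1 leukocyte marker tested also fell in the U3 table (-0.78) and rose in the inputs (0.18). It was not called after FUBP1 knockdown. The 1 cholangiocyte marker tested was called neither after U3 depletion (0.15) nor after FUBP1 knockdown (-0.34). The leukocyte and cholangiocyte lists each rest on 1 gene here. The part of these markers in the NOTUM result was not tested.

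The genes whose junction read levels were most like NOTUM over the 12 libraries of the FUBP1 and U3 tables, centred within each table, were LSS (Pearson r = 0.94), FASN (0.94) and FDPS (0.93), among 5985 genes. LSS and FDPS encode enzymes of sterol synthesis and FASN the fatty acid synthase. For CTNNB1 they were GTF3C3 (0.95), ORC4 (0.92) and GRINA (0.91). These correlations describe libraries that share the treatments and the depth of each table.

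A limma fit to the level of every event, added after the values had been seen, set junctions along a gene side by side. In the U3 table it called 32.5% of events, and the median of all events was 0.28. The 5 NOTUM events that cover most of the gene, at exons 2, 4, 6, 8 and 10, fell by 0.65 to 0.75 on the log2 scale, all called. The 2 events at exons 5 and 7, which take reads joining exon 5 to exon 7 as inclusion reads, rose instead, by 2.82 ± 0.68 and 1.87 ± 0.38 (adjusted p = 0.00288 and 5.95e-04). They held averages of 51.3 and 79.0 reads per library. The exon 5 event lay near the floor, at 2.22, 0.163 and 2.05 RPM in GFP ASO against 7.17, 6.33 and 7.43 in U3 ASO. Reads of NOTUM RNA without exon 6 were thus higher in RPM, while the reads over most of the gene were lower.

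AXIN2 was uneven along its length after U3 depletion. The event at exon 2 was at 18.8, 13.5 and 18.7 RPM in GFP ASO and at 6.82, 8.30 and 9.53 in U3 ASO (-1.04 ± 0.24, adjusted p = 0.00242). The event at exon 3 was at 36.6, 22.6 and 30.7 against 18.0, 19.0 and 21.9 (-0.59 ± 0.19, adjusted p = 0.0213). Both separated the groups. The events at exons 4, 7 and 9 stood at 0.47 ± 0.22, 0.35 ± 0.23 and -0.02 ± 0.14, none called, although the exon 4 event, at 12.2, 9.48 and 15.0 against 17.5, 16.7 and 15.8, separated the groups as well. The AXIN2 level therefore depends on the junction that is read. The difference between the ends of the gene was not tested.

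**Figure D3:**
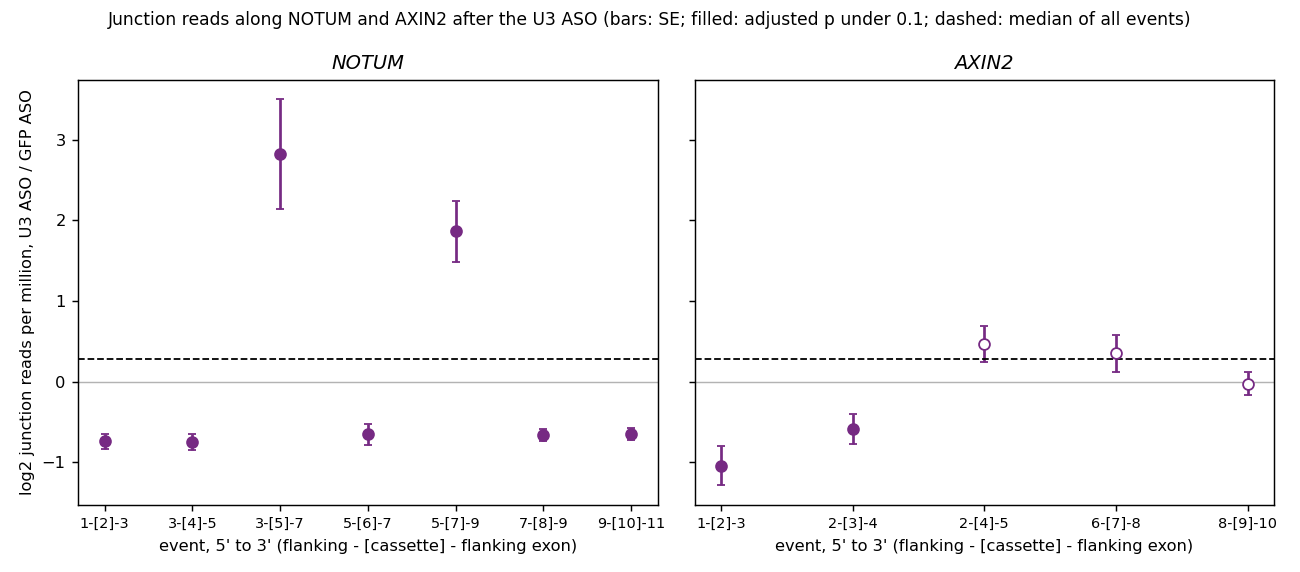
Log2 ratio of junction RPM, U3 ASO over GFP ASO, for each tested event of NOTUM and AXIN2 from 5′ to 3′, with bars for SE, filled points for adjusted p under 0.1 and a dashed line at the median of all events. The NOTUM events lie between -0.75 and -0.65 except for those at exons 5 and 7, at 2.82 and 1.87, and the AXIN2 events run from -1.04 at exon 2 to -0.02 at exon 9.

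In the fibrillarin inputs the same fit called 3.49% of events. The NOTUM event at exon 6 was at 260 and 357 RPM in siCtrl and at 98.8 and 119 in siFBL (-1.49 ± 0.31, adjusted p = 0.00121), beside -0.67 ± 0.19 at exon 2 (adjusted p = 0.0313). After FUBP1 knockdown, where it called 6% of events, AXIN1 exon 5 was at 21.7, 25.5 and 20.4 against 40.2, 41.2 and 45.3 (0.91 ± 0.25, adjusted p = 0.0377), whereas the AXIN1 event at exon 2 stood at -0.01 ± 0.29 and no NOTUM event was called.

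Other genes of the pathway were counted from lists chosen by role. No gene of 25 for ligands and their secretion had a tested event. Among receptors and transducers, 0 of 6 genes were called on level after FUBP1 knockdown, 2 of 7 rose after U3 depletion and 0 of 6 were called in the inputs. The risers were DVL3 (0.71 ± 0.12) and DVL1 (1.13 ± 0.20), which encode Dishevelled proteins. In the destruction complex list 1 of 14 fell (TNKS2, which encodes tankyrase, -0.83 ± 0.28), 5 of 17 rose and 0 of 11 were called, in the same order of comparisons. Among nuclear partners 1 of 16 fell, then 8 of 15 rose and 1 fell, then 0 of 10 were called, with the β-catenin cofactor gene BCL9L up by 1.07 ± 0.14 after U3 depletion. Of the adherens junction partners, 0 of 4 were called, 3 of 7 rose and 0 of 3 were called. After FUBP1 knockdown these counts stand beside 9.11% of all genes called, and in the inputs beside 3%. After U3 depletion they stand beside 39.4% of all genes called and a median of 0.27.

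Secreted and membrane inhibitors, the group closest to NOTUM in role, had 0 of 4 called after FUBP1 knockdown, beside 9.11% of all genes. After U3 depletion NKD1, a feedback inhibitor that binds Dishevelled, rose by 0.82 ± 0.08. GPC3, a glypican of the liver cell surface, fell by 0.36 and SERPINF1 fell by 0.21. These were the calls among 5 tested genes, beside 39.4% of all genes. In the inputs NKD1 went the other way, from 470 to 173 RPM on average (-1.44 ± 0.24, limma, adjusted p = 5.50e-04). GPC3 stood at -0.21 ± 0.06 (adjusted p = 0.0659), which is -0.03 relative to the median of all genes. Thus 2 of 3 passed the test as lower, beside 3% of all genes called. Among liver target genes of the pathway, 2 of 10 rose and 1 fell after FUBP1 knockdown, beside 9.11% of all genes called, and 5 of 12 rose and 3 fell after U3 depletion, beside 39.4%, where the split of calls into higher and lower depends on the scaling as given above. FST, which encodes the activin antagonist follistatin, was at 1.66 ± 0.11 and the cyclin gene CCND1 at 0.67 ± 0.10 after U3 depletion. ODAM was at -0.92 ± 0.16 there, and the median of the list was -0.20 relative to that of all genes. After FUBP1 knockdown ACSL5 was at 0.80 ± 0.17, OAT at 0.55 ± 0.17 and ODAM at -1.10 ± 0.28. In the inputs 0 of 8 were called, beside 3% of all genes. On inclusion, 2 events in all these lists were called. The inclusion share of a CSNK1A1 exon went from 0.0742 to 0.00598 after FUBP1 knockdown (adjusted p = 0.0708). It was 1 of 34 tested events in the destruction complex list, beside 0.197% of all tested events called. That of a TNFRSF19 exon went from 0.712 to 0.957 after U3 depletion (adjusted p = 0.0179). It was 1 of 58 tested events of the liver target genes, beside 0.226% of all tested events.

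The RIP table gives, for each gene, the authors' log2 ratio of FUBP1-bound RNA over input with its standard error. It holds no value per library. In siCtrl 6 members had a ratio whose 95% interval lay above 0, beside 45.5% of the 11581 genes whose mean normalized count reached 50, and 2 had an interval below 0, beside 41.3%. TCF7L2 led with 3.19 ± 0.07 (SE), at the 96.3 percentile of all genes. LGR5 followed with 2.18 ± 0.12, APC with 1.51 ± 0.10, AXIN2 with 1.17 ± 0.07, CTNNB1 with 1.06 ± 0.06 and ZNRF3 with 1.02 ± 0.05. The intervals of LGR5 and APC did not overlap with each other or with that of TCF7L2, whereas those of AXIN2, CTNNB1 and ZNRF3 did overlap.

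NOTUM and AXIN1 lay near the input level, at -0.08 ± 0.04 and -0.09 ± 0.08, below the median of all genes of 0.15. TCF7 was at -0.69 ± 0.13 and RNF43 at -0.79 ± 0.08. The order followed gene length loosely. TCF7L2 spans 217 kb and NOTUM 9.33 kb, and the Spearman correlation of gene span with the ratio was 0.60 over the 10 members and 0.43 over 11283 genes with an annotated span. This is a description across genes, which are not independent replicates.

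In siFBL the counts were the same, with 6 members above 0, beside 44.3% of all genes, and 2 below, beside 40.2%. The ratios were 3.09 ± 0.07 for TCF7L2, 1.90 ± 0.07 for LGR5, 1.43 ± 0.09 for APC, 0.91 ± 0.05 for CTNNB1, 0.90 ± 0.07 for AXIN2 and 0.79 ± 0.08 for ZNRF3. NOTUM was at 0.05 ± 0.04, AXIN1 at -0.02 ± 0.09, RNF43 at -0.50 ± 0.09 and TCF7 at -0.77 ± 0.13. Fibrillarin knockdown thus left the 10 genes in nearly the same order.

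**Figure D4:**
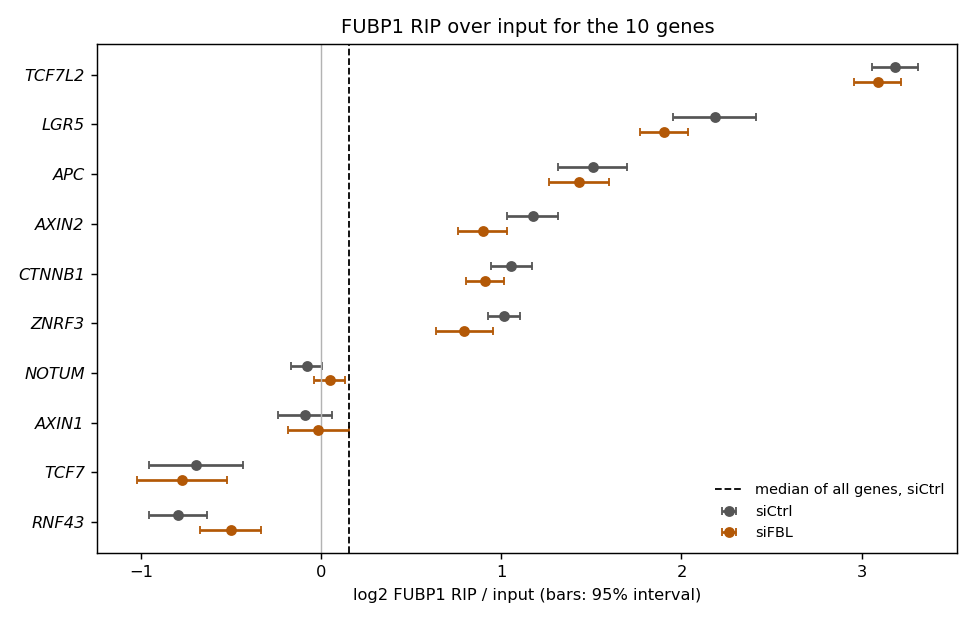
Log2 ratio of FUBP1 RIP over input for the 10 genes in siCtrl (grey) and siFBL (orange), with bars for the 95% interval and a dashed line at the median of all genes in siCtrl. TCF7L2 lies at 3.19 and 3.09, and NOTUM at -0.08 and 0.05.

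The difference between the conditions passed the test for 2 members. AXIN2 was lower in siFBL by -0.28 ± 0.10 (two-sided z test on the deposited DESeq2 ratios, adjusted p = 0.0466), beside 8.18% of all genes called lower. RNF43 was higher by 0.29 ± 0.12 (adjusted p = 0.0996), beside 6.57% called higher. ZNRF3 (-0.22 ± 0.09, adjusted p = 0.106), LGR5 (-0.28 ± 0.14, adjusted p = 0.192) and NOTUM (0.13 ± 0.06, adjusted p = 0.193) missed the threshold in this fit. The intervals of the difference were -0.30 to 0.01 for CTNNB1, -0.33 to 0.18 for APC, -0.28 to 0.08 for TCF7L2, -0.15 to 0.30 for AXIN1 and -0.44 to 0.28 for TCF7. The standard errors came from fits on 2 libraries per arm, and with them widened by a factor of 1.51, which fits the spread of all z values, neither member was called. Without the filter on the mean count, or with it at 10, RNF43 was not called. With the ratios of each condition centred on their median, both stayed called and NOTUM was called as well (0.16, adjusted p = 0.0726).

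Over the whole table the ratios drew toward 0 in siFBL. Genes with a siCtrl ratio above 0.5 had a median difference of -0.21, and those with a ratio below -0.5 a median difference of 0.27, and the slope of the siFBL ratio on the siCtrl ratio was 0.87. Its part in the AXIN2 and RNF43 differences was not tested. Among the other lists, 4 of 14 receptors and transducers were called lower, LRP6 by -0.42 ± 0.07. So were 3 of 19 in the destruction complex and 5 of 14 liver target genes, TBX3 by -0.53 ± 0.12, beside 8.18% of all genes. Of 9 inhibitors 3 were called higher, NKD1 by 0.17 ± 0.07, beside 6.57% of all genes. Of 19 nuclear partners 3 were called higher and 2 lower, while 0 of 7 adherens junction partners were called. These list calls use the standard errors without the widening. The mean normalized count, which mixes RIP and input and was scaled separately in each condition, went from 29664 to 15070 for NOTUM and from 19545 to 9176 for ZNRF3, ratios at the 2.85 and 1.74 percentiles of all genes.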

How the data were processed

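Per the labels and the study's methods, the authors made libraries with a stranded total RNA kit and trimmed adapters with Cutadapt. They aligned reads to hg38 with HISAT2 and listed skipped exons with rMATS. The methods give a polyA selection for the libraries of the FUBP1 knockdown, the oligonucleotides and their controls. They describe no such step for the input and RIP libraries. Whether this sets the fibrillarin and RIP tables apart from the others was not tested. Versions and the annotation are not given in the sources used here. The deposited rMATS tables hold whole junction read counts per library as lists whose positions carry no replicate number. The RIP table holds the authors' DESeq2 log2 ratio of RIP over input with its standard error, and a mean normalized count, used here as a score for filtering. The methods name HTSeq for the counting and the labels featureCounts. The columns of the authors' own p-values, adjusted values and inclusion differences were not used, nor were 6 columns of inclusion levels per library.

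The members and lists were chosen with earlier results of these data known. Groups came from the labels. No 2 libraries of a table were identical. The labels number replicates without naming cultures, while the study's methods call them biological replicates. The p-values measure the spread between these libraries. Inclusion was tested over each whole table with a quasi-binomial model (mean of at least 10 reads, dispersion moderated with limma 3.58.1 in R 4.3.3, prior set by events whose information reached 5, Benjamini-Hochberg, called under 0.1). Levels were tested with limma on log2 RPM, reads per 1000000 junction reads (0.5 reads added, 1 event per gene). RIP differences used a two-sided z over genes whose mean count reached 50, leaving out ratios listed at exactly 0. The tests were checked on simulated data. Values in every library were printed for each member's event with the most reads, those with an unadjusted p under 0.05, CTNNB1 events at exons 3 and 4 and events tested in all 3 tables, and other pathway genes were named only where called. For constitutive exons the range stands in their place. The alternatives were other dispersion trends, limma on the log2 odds, other minimum reads, scalings and added reads, leaving out 1 library and, for the RIP table, other filters, centring and widened standard errors. Annotation came from GENCODE release 44, and Python 3.11.15 with pandas 2.3.3, scipy 1.17.1 and matplotlib 3.10.9 made the other tables and plots. The sequence of 1 exon is not reported here.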

Additional observations from a re-analysis of the deposited data

Results flagged for a closer look

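The FUBP1 RIP ratio of 2 members differed between fibrillarin knockdown and control. For AXIN2, siFBL minus siCtrl was -0.28 on the log2 scale, and for RNF43 it was 0.29. What drew attention was the test of the difference itself, and neither call held with widened standard errors. The table holds no value per library, so the part of single libraries was not tested.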

How the results depend on the processing

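No paired analysis was possible because the positions of the read lists carry no replicate numbers, and the planned fits with that block were not run. The RIP table has no values per library, so none could be left out. The number of members called on inclusion after U3 depletion (2) was 0 in both limma fits on the log2 odds, which made no call in the whole table. The 2 NOTUM calls thus depend on the form of the test. In the inputs the number called (0) was 1 with the dispersion trend on the mean reads. On level, the 1 call after FUBP1 knockdown became 2 with reads summed over all events and ranged from 0 to 2 when 1 library was left out. The 4 calls after U3 depletion became 1 with median-of-ratios scaling, 5 with inclusion reads scaled by effective length, 5 with a mean of at least 50 reads, TCF7L2 called in both, and ranged from 3 to 6 without 1 library. The 1 call in the inputs became 0 with median-of-ratios scaling and 0 in each fit without 1 library. The 2 RIP differences became 1 with a mean count of at least 10, 1 without a filter, 0 with widened standard errors and 3, NOTUM added, with ratios centred on the median. The cause was not tested. The 0 calls on inclusion after FUBP1 knockdown did not change under the alternatives run. The 6 members above the median RIP ratio stayed the same without the filter on the mean count. Centring the ratios on the median cannot change that number, and no alternative was run for the FUBP1 target check. Over all events, calls ranged from 6 to 52 after FUBP1 knockdown (32), 0 to 75 after U3 depletion (68) and 0 to 58 in the inputs (0). Genes called on level in the inputs (93) ranged from 2 to 68 without 1 library. The input libraries were the shallowest, with 910779 to 1142189 junction reads, and no detection limit was computed for them.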
